A study of Mus musculus with 6 samples.

Results

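The genes described here control how a cell senses, takes up and exports cholesterol. They were chosen by name in the deposited table: the sterol regulatory element binding protein (SREBP) factors Srebf1 and Srebf2, their escort Scap, the retention proteins Insig1 and Insig2, the sterol transfer protein Stard4, the ubiquitin ligase Mylip and the efflux transporters Abca1 and Abcg1. All 9 were found, once each, among 54532 genes. RNA sequencing was performed on MC3T3-E1, a clonal mouse pre-osteoblast line, in 2 groups of 3 biological replicates. The control cells were kept in osteogenic medium, which held β-glycerophosphate, ascorbic acid and 10 nM dexamethasone, and the other cells were kept in the same medium with 0.2 mM metformin, a biguanide that lowers blood glucose. RNA was collected after 3 days. Medium, dose and time come from the text of the study, since the sample labels give only the cell line, nc or met, and the replicate. That nc stands for osteogenic medium without metformin was taken from the comparison which the study describes. The table holds FPKM, the reads of a gene scaled by gene length and library. Read totals worked out from these values were 18399861 to 20652437 per control sample and 19256672 to 22111790 per metformin sample.

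SREBPs are made as membrane proteins of the endoplasmic reticulum. When sterols are scarce, Scap carries them to the Golgi, where proteases release a fragment that enters the nucleus and switches on genes of cholesterol and fatty acid synthesis and of lipoprotein uptake. When sterols are plentiful, the Insig proteins hold Scap back, and oxysterols activate the liver X receptors (LXR). These nuclear receptors raise Abca1, Abcg1 and Mylip, among other genes. Stard4 moves cholesterol between membranes, Abca1 and Abcg1 pass it out of the cell to lipoproteins, and Mylip marks lipoprotein receptors for breakdown.

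With metformin, Insig1, Stard4 and Srebf2 rose, Abca1, Mylip and Insig2 fell, Srebf1 and Scap did not pass the test, and Abcg1 had no reads. Differences were tested with limma-trend, fitted to log2(FPKM + 1). The fit took in 12681 genes, those whose FPKM averaged 0.5 or more, and a gene was called at an adjusted p-value under 0.05. Of the 8 genes tested, 3 were called higher, against 13.2% of all tested genes, and 3 were called lower, against 9.28%. These calls are of RNA from whole cultures, in which fewer cells of a type and less RNA per cell cannot be told apart.

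The libraries were not equally alike. Correlations of log2 values across genes were 0.992 among the metformin samples and 0.988 between control replicates 2 and 3, but 0.960 and 0.952 between those and control replicate 1. Across genes, control replicate 1 departed from the other controls in step with GC content (Spearman correlation -0.668, a description over genes that share these libraries). All 9 osteoblast markers examined had a mean of at least 1 FPKM, and they did not move one way: Col1a1 and Col1a2 were called higher, Ibsp and Spp1 lower, and the other 5 were not called. Their summed level, most of it Spp1 in controls, was 11400 to 13400 FPKM in controls and 8130 to 8622 FPKM with metformin. Of the 9 macrophage markers, 3 were at 0 reads in all samples, and the summed level was 11.8 to 14.1 FPKM in controls and 8.91 to 10.6 FPKM with metformin. Tyrobp, C1qa and C1qb were those at 0, and most of the sum came from Cd14, which macrophages do not express alone. Cd68 and Cd14, the 2 with a mean of at least 1 FPKM, were called lower. Their log2 fold changes were -0.49 and -0.38 (limma-trend, adjusted p = 0.0102 and 0.0496). Csf1r was higher in every metformin sample, but had 1 to 8 reads and was not tested. The 7 adipocyte markers, of which Cidec was at 0, summed to 7.86 to 12.2 FPKM in controls and 8.64 to 9.72 FPKM with metformin. Only 2 of the 7, Cebpa and Fabp4, had a mean of at least 1 FPKM, and most of the sum came from Cebpa. Adipoq had at most 3 reads in a sample and Plin1 at most 4. The 5 endothelial markers summed to at most 0.156 FPKM in any sample. The part of these markers in the results was not tested.

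Promoter sequences are shown for Srebf2 and Insig1, which rose, and for Abca1, which fell, so that the motifs known for SREBP and its partners can be seen beside the expression values. Each runs 5′ to 3′ on the strand of the gene, from 250 bases before the start to 50 after it, as given by RefSeq for GRCm38.p6. Srebf2 lies on the plus strand at chr15:82147019-82147318, Insig1 on the plus strand at chr5:28071162-28071461 and Abca1 on the minus strand at chr4:53159846-53160145. Capitals mark the motifs found on either strand: the CCAAT box or its reverse complement, the E-box CACGTG, and TCACCCCA, a shortened sterol regulatory element searched after the sequences had been seen.
Srebf2: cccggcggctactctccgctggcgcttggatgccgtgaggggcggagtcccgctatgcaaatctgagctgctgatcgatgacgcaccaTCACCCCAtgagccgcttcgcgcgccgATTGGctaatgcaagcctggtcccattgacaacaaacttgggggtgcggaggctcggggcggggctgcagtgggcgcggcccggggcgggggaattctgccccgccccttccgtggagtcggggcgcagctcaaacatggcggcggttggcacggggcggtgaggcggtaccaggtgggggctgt
Insig1: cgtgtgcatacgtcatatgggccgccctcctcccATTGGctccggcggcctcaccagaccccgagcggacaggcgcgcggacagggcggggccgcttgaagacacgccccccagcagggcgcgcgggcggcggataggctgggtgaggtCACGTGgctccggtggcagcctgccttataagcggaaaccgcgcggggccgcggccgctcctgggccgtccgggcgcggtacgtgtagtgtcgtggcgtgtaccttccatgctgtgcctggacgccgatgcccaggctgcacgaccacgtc
Abca1: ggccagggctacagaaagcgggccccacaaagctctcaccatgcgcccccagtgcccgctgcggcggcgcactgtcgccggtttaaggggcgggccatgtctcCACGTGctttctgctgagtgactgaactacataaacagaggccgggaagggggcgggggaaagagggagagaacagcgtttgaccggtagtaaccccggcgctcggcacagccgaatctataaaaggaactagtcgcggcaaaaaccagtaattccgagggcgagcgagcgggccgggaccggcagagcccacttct

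The Srebf2 window held TCACCCCA from base -162 to -155 and an inverted CCAAT box from -135 to -131. In the Insig1 window an inverted CCAAT box stood at -216 to -212 and an E-box at -101 to -96, and in the Abca1 window an E-box stood at -147 to -142. The longer sterol regulatory element core TCACNCCAC, which overlaps TCACCCCA, was in none of the 12 promoter windows listed for 7 of the 9 genes. The LXR element, a direct repeat of AGGTCA with any 4 bases between the copies, was not found in these letters either, also when AGTTCA was allowed for a copy. LXR elements often differ from these letters, also in promoters of known targets, and such variants were not searched, so nothing follows about LXR elements in these windows. Other variants of the sterol regulatory element, and sites outside these windows, were not searched either. Nothing follows about that element for genes in which it was not found. No window was listed for Stard4 or Abcg1. Among the windows not printed, that of Mylip held 3 inverted CCAAT boxes, 1 of the 3 of Insig2 held 3 CCAAT boxes on either strand, 2 of the 3 of Srebf1 held 1 each, and the overlapping windows of Scap both held the same E-box. Among all 32851 promoters of the same length, 1.56% held TCACCCCA, 37.4% CCAAT, 7.15% CACGTG, 1.24% TCACNCCAC and 0.0274% the LXR repeat. These matches describe letters and not bound sites.

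**Figure D1:**
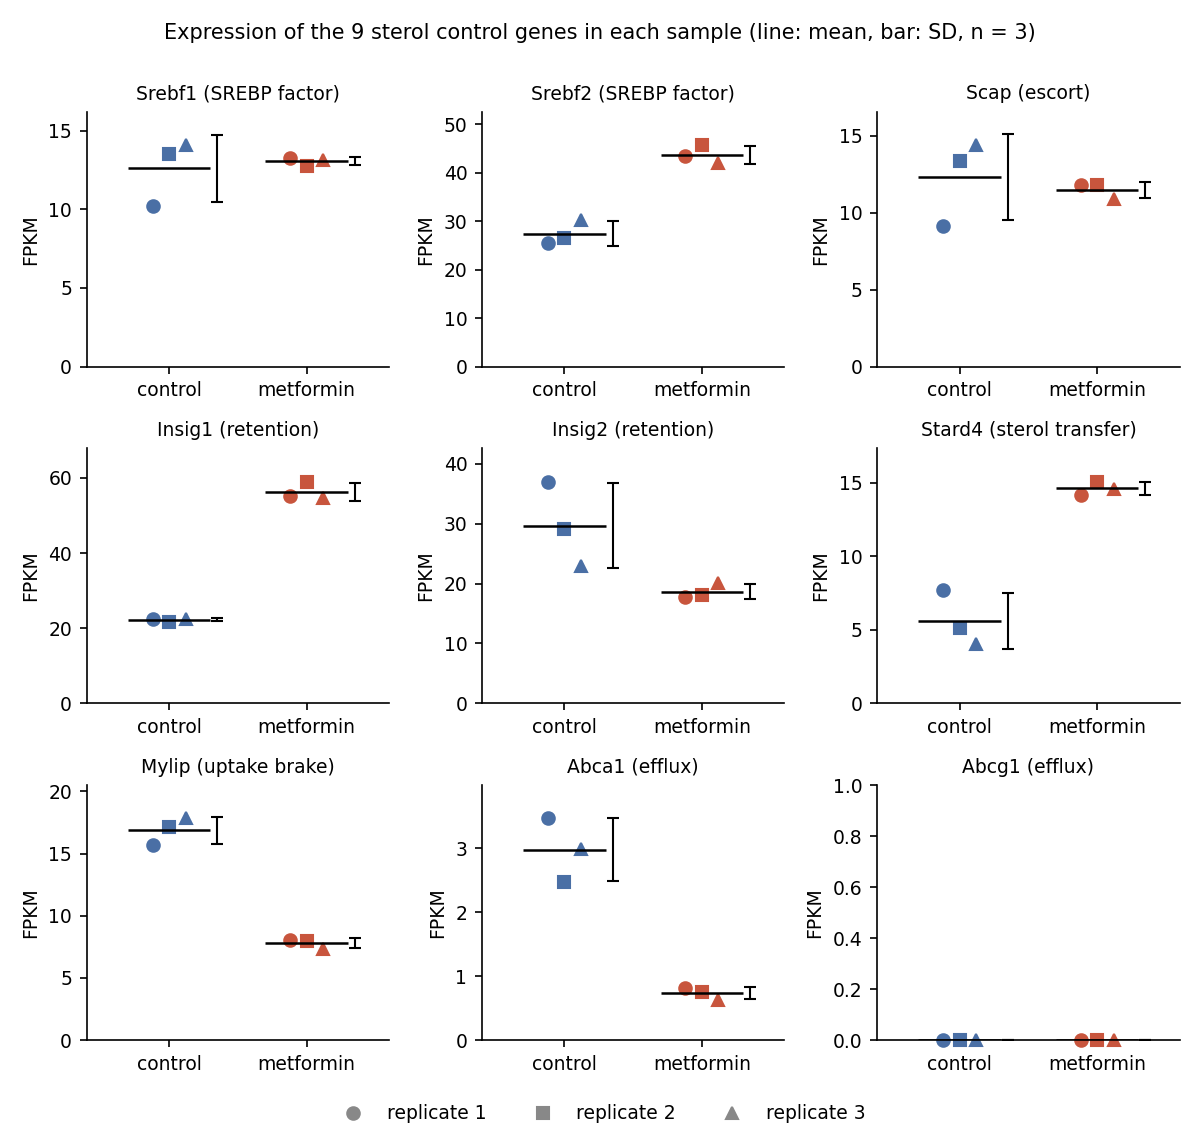
FPKM (vertical axes, each from 0) of the 9 genes in the 3 control samples and the 3 samples with metformin; markers give the replicate, horizontal lines the mean and bars the SD (n = 3). Metformin samples lay apart from controls for Srebf2, Insig1, Insig2, Stard4, Mylip and Abca1, overlapped them for Srebf1 and Scap, and Abcg1 was at 0 throughout.

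Srebf2 encodes the SREBP that mainly drives cholesterol synthesis. Its level (chromosome 15, 82147181 to 82205379) was 25.4, 26.6 and 30.3 FPKM in control replicates 1 to 3, and 43.4, 45.7 and 42.1 FPKM in the metformin replicates. Every metformin sample lay above every control. The mean rose from 27.4 ± 2.56 FPKM to 43.7 ± 1.84 FPKM (SD, n = 3 each), which is 1.59-fold, and the fitted log2 fold change was 0.66 with a standard error of 0.096 (limma-trend, adjusted p = 0.00421). Srebf2 was called in all 6 fits that each left out one replicate.

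Srebf1 encodes the SREBP isoforms that favour fatty acid genes, and a gene-level table cannot separate them. It lies on chromosome 11 (60199089 to 60222581). Control levels were 10.2, 13.5 and 14.1 FPKM, and those with metformin were 13.3, 12.8 and 13.1 FPKM. The metformin values fell inside the control range, and control replicate 1 was the lowest of all 6 samples. The log2 fold change was 0.061 with a 95% interval from -0.24 to 0.36 (adjusted p = 0.772). Srebf1 was thus not called lower, unlike Abca1 and Mylip (log2 fold changes of -1.19 and -1.02). Whether LXR drives Srebf1 in these cells was not tested. Rai1, on the opposite strand, overlaps Srebf1 at 5.22 to 12.9 FPKM, and the sources used here do not state whether counting used strand.

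Transcripts of Srebf2 were 71.4%, 66.3% and 68.3% of the sum of both Srebf genes in the controls and 76.6%, 78.2% and 76.2% with metformin. The share was higher in every metformin sample. Within samples, the log2 ratio of Srebf1 to Srebf2 went from -1.13 ± 0.17 to -1.74 ± 0.086 (SD, n = 3), a difference of -0.61, with p = 0.1 by a two-sided exact permutation test. That is the smallest p this design of 3 against 3 allows, and it was also 0.1 after adjustment over the 3 ratios examined.

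Scap, the cholesterol-sensing escort (chromosome 9, 110333288 to 110384950), had 9.15, 13.4 and 14.4 FPKM in controls and 11.8, 11.8 and 10.9 FPKM with metformin. The groups overlapped because control replicate 1 lay below every metformin sample while the other controls lay above. The log2 fold change was -0.068, with a 95% interval from -0.46 to 0.32 (adjusted p = 0.802). Without control replicate 1, Scap was called lower, with a log2 fold change of -0.25 (adjusted p = 0.0214 by limma-trend), in a fit that called 20.4% of all tested genes lower, and after GC correction of every library the value was -0.15 (adjusted p = 0.0881). Scap has the highest GC content of the 9 genes, at 59.1%. It overlaps and shares sequence with the antisense transcript 5830462I19Rik, which reached at most 0.0752 FPKM.

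Insig1 is itself a target of SREBP and closes a feedback loop on Scap. Its RNA (chromosome 5, 28071363 to 28078662) stood at 22.6, 21.7 and 22.4 FPKM in controls, the tightest group of values among the 8 detected genes with a coefficient of variation of 2.01%. With metformin it stood at 55.3, 59.0 and 54.6 FPKM. No metformin sample came near a control, and the mean was 2.53-fold higher (22.2 ± 0.448 against 56.3 ± 2.38 FPKM, SD, n = 3). The log2 fold change was 1.30 (standard error 0.078, adjusted p = 0.000142), and it ranged only from 1.23 to 1.34 over the 14 alternatives run.

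Insig2 does the same work of retention but is not driven by SREBP in the same way. Its levels (chromosome 1, 121304353 to 121332589) were 37.0, 29.1 and 22.9 FPKM in controls and 17.8, 18.1 and 20.0 FPKM with metformin. The groups did not overlap, although control replicate 3 lay close to metformin replicate 3. Insig2 fell by 0.62 on the log2 scale (standard error 0.17, adjusted p = 0.0427). The call was lost with the replicate number as a block (adjusted p = 0.0787) and with no filter on low values (adjusted p = 0.0918). It was also lost without control replicate 2 (adjusted p = 0.110) and without metformin replicate 1, 2 or 3 (adjusted p = 0.144, 0.141 and 0.10). Without control replicate 1, the highest sample, it was called, with a log2 fold change of -0.45 (adjusted p = 0.0170).

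Both Insig genes together had 59.6, 50.9 and 45.3 FPKM in controls and 73.1, 77.1 and 74.6 FPKM with metformin. Insig1 made up 37.9%, 42.7% and 49.5% of that sum in controls and 75.7%, 76.5% and 73.1% with metformin. Insig2 was thus the more abundant transcript per length in every control, and Insig1 in every metformin sample. Within samples the log2 ratio of Insig1 to Insig2 rose by 1.98, from -0.39 ± 0.34 to 1.6 ± 0.13 (SD, n = 3, exact permutation p = 0.1). The log2 ratio of Insig1 to Scap rose by 1.41, from 0.88 ± 0.37 to 2.29 ± 0.052 (SD, n = 3, exact permutation p = 0.1). For the sum of both Insig genes over Scap the groups overlapped, with 6.51, 3.8 and 3.15 in controls and 6.20, 6.52 and 6.84 with metformin, since control replicate 1 combined the lowest Scap with the highest Insig2. Sums and ratios of RNA do not give protein amounts.

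**Figure D2:**
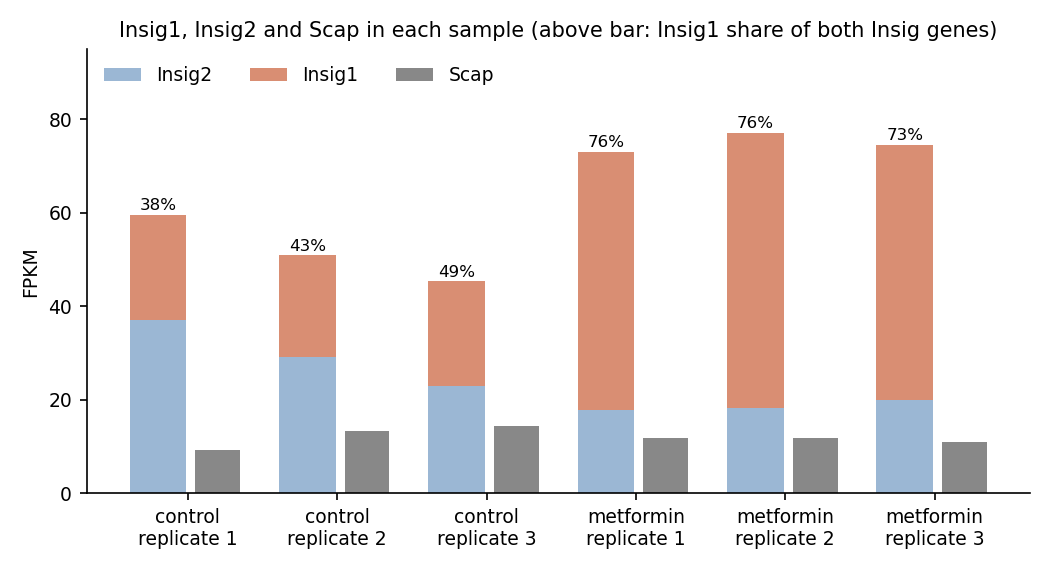
Stacked bars give Insig2 (bottom) and Insig1 (top) in FPKM for each of the 6 samples, with the Insig1 percentage above, and grey bars give Scap. Insig1 was 37.9% to 49.5% of the Insig sum in controls and 73.1% to 76.5% with metformin.

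Stard4 encodes a soluble carrier that moves cholesterol between membranes and is known to be induced by SREBP. Levels (chromosome 18, 33199355 to 33213862) were 7.72, 5.10 and 4.04 FPKM in controls and 14.2, 15.1 and 14.6 FPKM with metformin. The groups lay far apart, and control replicate 1 was again at the edge of its group, as the highest control. The mean rose 2.60-fold, from 5.62 ± 1.89 to 14.6 ± 0.447 FPKM (SD, n = 3), and the log2 value by 1.28 with a standard error of 0.19 (adjusted p = 0.00485). Without control replicate 1 the log2 fold change was 1.49 (adjusted p = 7.95e-05).

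Mylip, also called IDOL, is the LXR target that removes lipoprotein receptors. Its RNA (chromosome 13, 45389742 to 45412022) stood at 15.7, 17.1 and 17.8 FPKM in controls and at 8.07, 7.96 and 7.34 FPKM with metformin. Every metformin sample lay well below every control, at 46.1% of the control mean (16.9 ± 1.08 against 7.79 ± 0.398 FPKM, SD, n = 3). Mylip fell by 1.02 on the log2 scale (standard error 0.086, adjusted p = 0.000407).

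Abca1, the LXR target that loads cholesterol onto apolipoproteins, had 3.47, 2.48 and 2.99 FPKM in controls and 0.822, 0.753 and 0.629 FPKM with metformin. These rest on 538 to 656 reads per control sample and 127 to 170 reads per metformin sample. Metformin samples lay below all controls, at 24.7% of the control mean, the largest ratio between groups of the 8 detected genes at 4.06-fold. The log2 fold change of FPKM + 1 was -1.19 (standard error 0.12, adjusted p = 0.000857). The pseudocount shrinks it at this low level, since with voom on the recovered reads it was -2.01 and with a pseudocount of 0.1 it was -1.88. Abca1 lies on chromosome 4 from 53030787 to 53159895.

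Abcg1, the other LXR-driven exporter, which passes cholesterol to high-density lipoprotein (chromosome 17, 31057698 to 31115777), had 0 reads in all 6 samples. A count of 0 allows up to 3 reads per library, or 0.0339 to 0.0404 FPKM, for counting error only. Of the 22046 protein-coding genes listed, 6171 likewise had 0 reads in every sample. No change could be measured, and its ratio to Abca1 could not be formed.

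**Figure D3:**
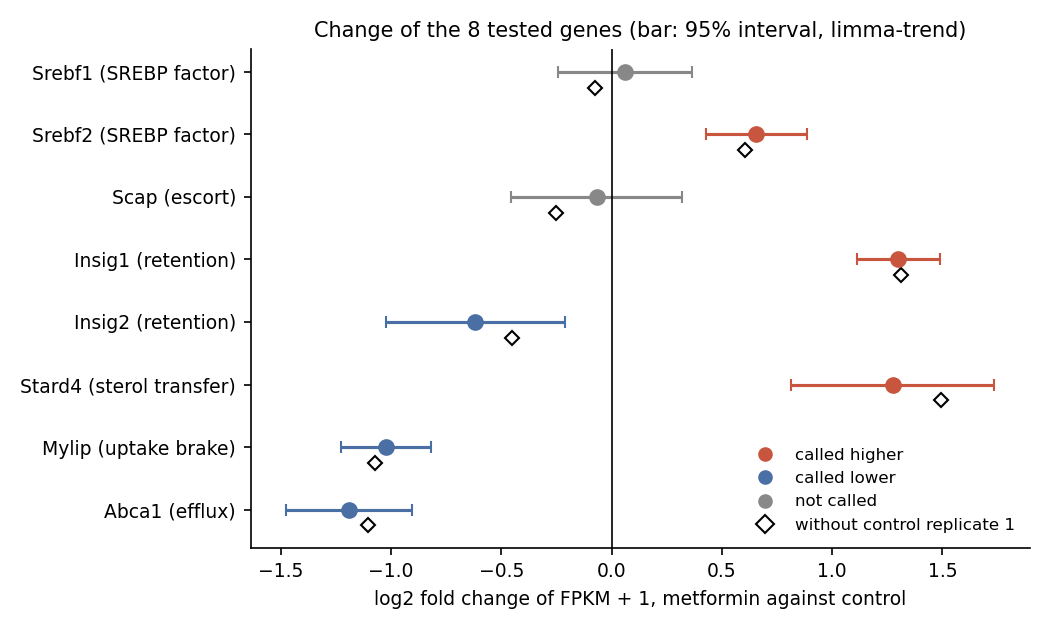
Log2 fold change of FPKM + 1 (horizontal axis, metformin against control) of the 8 tested genes with 95% intervals from limma-trend; open diamonds give the value without control replicate 1. Insig1, Stard4 and Srebf2 lay above 0, Insig2, Mylip and Abca1 below, and the intervals of Srebf1 and Scap crossed 0.

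For the 6 called genes the groups did not overlap, above the controls for 3, against 23.6% of all tested genes, and below them for 3, against 20.5%. In controls the order of levels per length was Insig2, Srebf2, Insig1, Mylip, Srebf1, Scap, Stard4, Abca1 and Abcg1. Of these neighbours Insig2 and Srebf2, and Srebf1 and Scap, overlapped between samples. With metformin the order was Insig1, Srebf2, Insig2, Stard4, Srebf1, Scap, Mylip, Abca1 and Abcg1, with no overlap between neighbours. Controls varied more than metformin samples for 7 of the 8 detected genes, with coefficients of variation from 6.42% for Mylip to 33.7% for Stard4, and Insig1 was the exception with 2.01% against 4.22%.

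The microRNA gene Mir33 lies inside Srebf2, and miR-33 is known to target Abca1, so both sequences are shown; this was looked up after the expression values had been seen. The mature miR-33-5p (RefSeq, GRCm38.p6, plus strand, chr15:82198127-82198147) is given with its seed, bases 2 to 8, in capitals. Below it stand bases 131 to 160 of the 3156-base 3′ UTR of Abca1 (GENCODE M21, GRCm38, minus strand, chr4:53033783-53033812), with matches to that seed in capitals.
miR-33-5p: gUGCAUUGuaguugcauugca
Abca1 3′ UTR: tattCAATGCAATGCActtCAATGCAacga

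The Abca1 stretch held 3 matches, of which the first and the second overlap. Abcg1 had 2 matches in its 3′ UTR of GENCODE M21, from which its deposited coordinates differ, and the other 7 genes had 0. Of 20981 genes with a 3′ UTR, 7.07% had a match and 0.658% had 2 or more, and among the 2423 with a length of 2500 to 4000 bases these were 16.3% and 1.53%. The libraries do not measure mature microRNAs, and Mir33 had at most 1 read in a sample, so its level is unknown.

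The rest of the pathway was examined in 5 lists, whose counts are to be read against the 13.2% of all tested genes called higher and the 9.28% called lower. Without control replicate 1 these shares were 23.4% and 20.4%. Cholesterol synthesis enzymes, listed as driven by SREBP-2, had 15 of 18 genes higher and 0 lower. Their median log2 fold change was 1.09, against 0.0053 for all tested genes. On the scale of log2(FPKM + 1), which shrinks the changes of low genes, the largest rise was that of Idi1, which isomerizes isopentenyl diphosphate, with 6.64, 2.98 and 3.03 FPKM in controls and 15.2, 16.2 and 15.7 FPKM with metformin (log2 fold change 1.75, adjusted p = 0.00386). By the ratio of means Fdps, the farnesyl diphosphate synthase named after its values were seen, rose more, 5.42-fold against 3.72-fold, from 0.403, 0.295 and 0.278 FPKM to 1.32, 1.89 and 2.09 FPKM (log2 fold change 1.05, adjusted p = 0.00235). Both are uncertain, since Fdps has 5 and Idi1 has 3 near-identical copies among annotated transcripts, between which counting could split reads. Gm3571, a copy of Fdps, stood above Fdps in every sample, at 5.17, 4.99 and 5.09 FPKM in controls and 14.2, 15.4 and 14.3 FPKM with metformin. The ratio of Fdps alone thus leaves out most of the FPKM of that sequence. Copies of Idi1 reached at most 1.61 FPKM. Msmo1, Ebp and Ggps1 were the 3 not called, with log2 fold changes of 0.80, 0.38 and -0.23.

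Fatty acid enzymes, listed as driven by SREBP-1, had 10 of 15 tested genes higher and 1 lower, with a median of 0.70. The part of either SREBP in the changes of these 2 lists was not tested. Among the tested genes the delta-6 desaturase Fads2 had the largest rise on the log2(FPKM + 1) scale. Its level went from 24.0 ± 0.21 to 74.1 ± 3.59 FPKM (SD, n = 3, log2 fold change 1.58, adjusted p = 8.13e-05). Lpin1, a phosphatidate phosphatase, was the one that fell, from 8.33 ± 0.414 to 3.45 ± 0.161 FPKM (log2 fold change -1.07, adjusted p = 0.000271).

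Genes that cleave, sense or turn over SREBP, with their transport coat, had 1 of 24 tested genes higher and 0 lower, and a median of 0.040. The protease genes Mbtps1 and Mbtps2 had log2 fold changes of 0.036 and -0.073 (adjusted p = 0.813 and 0.803). Sec24d, a coat subunit of vesicles leaving the endoplasmic reticulum, was the called gene, at 0.35 (adjusted p = 0.0267), and its call survived the omission of 1 of the 6 replicates. With control replicate 1 left out, the list had 7 higher and 4 lower, close to the shares of all tested genes in that fit.

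Lipoprotein uptake and sterol traffic outside the 9 genes had 3 of 26 tested genes higher and 2 lower, close to the shares of all tested genes, with a median of 0.011. Tmem97, a sterol-regulated membrane protein, had the largest rise on the log2(FPKM + 1) scale, from 14.5 ± 2.57 to 35.1 ± 1.85 FPKM (SD, n = 3, log2 fold change 1.23, adjusted p = 0.00118). The lipoprotein receptor gene Vldlr fell from 12.8 ± 1.68 to 6.70 ± 0.163 FPKM (log2 fold change -0.84, adjusted p = 0.00222). The other called genes, named after their values were seen, were the receptors Lrp8 (log2 fold change 0.99) and Lrp1 (0.81), which were higher, Lrp8 by the larger ratio of means (3.05-fold against 2.42-fold for Tmem97), and the sterol transporter Gramd1b (-0.50), which was lower. Without control replicate 1 the list had 10 higher and 7 lower, in the fit in which 23.4% and 20.4% of all tested genes were called, and without metformin replicate 1, 2 or 3 it had 1 lower.

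LXR receptors, partners and targets outside the 9 genes had 1 of 15 tested genes higher and 0 lower, with a median of 0.084, and 7 further genes were under the limit on FPKM. The transporter Abca7 was the called gene, from 2.82 ± 0.37 to 3.87 ± 0.152 FPKM (SD, n = 3, log2 fold change 0.36, adjusted p = 0.0443). Its place in the list rests on the choice of genes, and whether LXR drives it was not tested. The receptor genes Nr1h2 and Nr1h3 had log2 fold changes of -0.19 and -0.17 (adjusted p = 0.599 and 0.481). Among genes listed as LXR targets, Lpcat3 had -0.019 and Pltp 0.53 (adjusted p = 0.905 and 0.0569). With so few genes tested these counts lie near the shares of all tested genes. In the fit that left out control replicate 1 the list had 2 higher and 2 lower, and the call of Abca7 survived the omission of 1 of the 6 replicates.

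**Figure D4:**
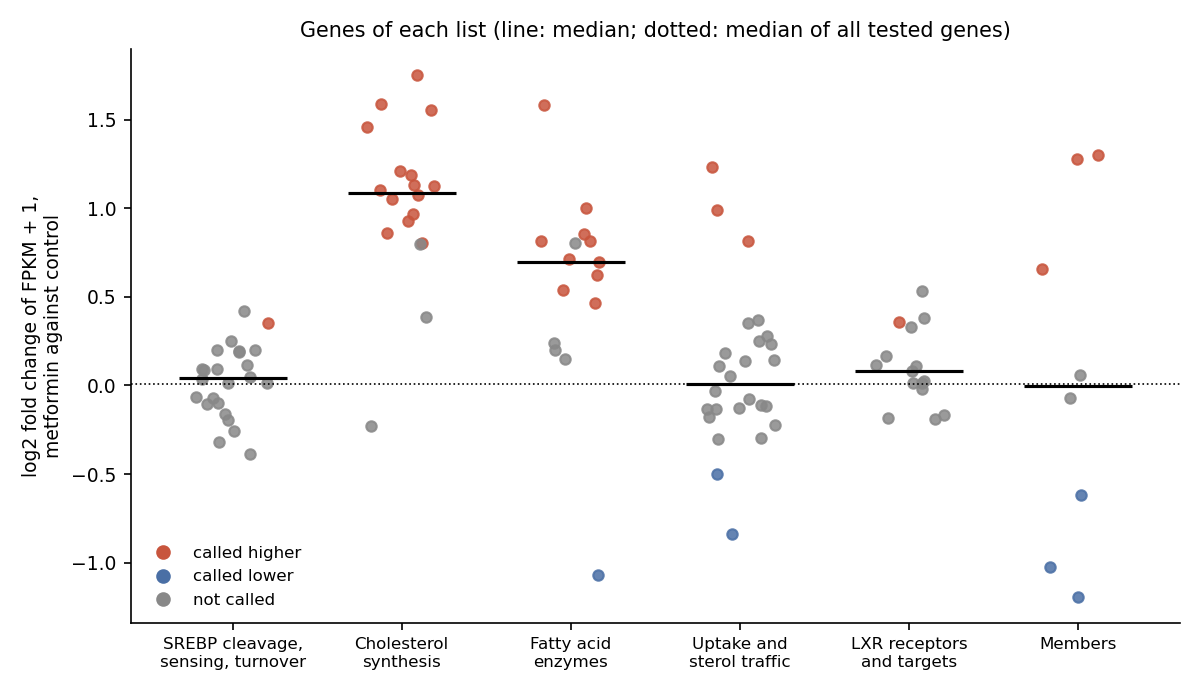
Log2 fold change of FPKM + 1 (vertical axis) of each tested gene in the 5 lists and of the 8 tested genes described here; lines give medians and the dotted line the median of all tested genes. Cholesterol synthesis (median 1.09) and fatty acid enzymes (0.70) lay above the dotted line, while the other lists had medians of 0.011 to 0.084.

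Genes whose 6 values moved most like those of a member were found by the root mean square difference of log2(FPKM + 1), each less the control mean. They share the libraries and the group difference. This scale shrinks the changes of low genes, so genes near each other on it need not have moved by the same ratio. For Srebf2 these were Kcnab2 (0.0116), Amotl2 (0.0258) and Ptpn14 (0.0431), with log2 fold changes of 0.66, 0.63 and 0.62. Nearest to Insig1 were Filip1l (0.0421), Gm3571 (0.0425) and Gm26737 (0.0486). Of these Gm3571 is uncertain, as it matches Fdps at 98.9% identity over 1062 bases, and so is Gm26737, which shares 313 bases with Rnf26. For Stard4 they were Atad2 (0.0740), Cyp51 (0.0753) and Ces2e (0.0820), of which Cyp51 encodes the lanosterol demethylase and had 53.8, 40.7 and 33.8 FPKM in controls and 93.7, 100 and 97.5 FPKM with metformin. Nearest to Abca1 were Efna1 (0.0947), Klhl24 (0.0957) and Irgm2 (0.101), which had log2 fold changes of -1.12, -1.19 and -1.11. With voom on recovered reads Kcnab2, at a mean of 0.881 FPKM in controls, had a log2 fold change of 1.17 against 0.675 for Srebf2. Amotl2 and Ptpn14 had 0.65 and 0.66 there. Filip1l, at a mean of 0.783 FPKM in controls, had 2.09 with voom against 1.34 for Insig1. Mean Efna1 fell from 16.3 to 6.91 FPKM, and mean Abca1 from 2.98 to 0.735 FPKM.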

How the data were processed

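RNA sequencing was done by the authors' provider on 6 samples. The table deposited by the authors names no unit, but its values are FPKM, reads per gene scaled by gene length and library size, since value times gene length is a whole multiple of 1 step per sample (tolerance 0.01) for 100% of values above 0. Gene length is in base pairs. Whether counting used strand and which counting tool made the table are not given in the sources used here; the submitters' processing notes list Bowtie 0.12.2 and the builds mm8 and mm9, but 53499 of 54532 genes have the coordinates of GENCODE M21 (GRCm38). The authors tested with DESeq2. Here FPKM were tested on a log scale, and the reads worked back from them only as an alternative, with voom.

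Groups were compared with limma 3.58.1 (R 4.3.3), trend on, on log2(FPKM + 1), with Benjamini-Hochberg adjustment. The fit was tested on simulated data for 12399 genes, in which it called 198 of 199 changed genes and 10 unchanged ones. The simulated libraries had equal spread and no GC trend, so this does not cover a library such as control replicate 1. The 9 genes, the lists and the tests were chosen with earlier results of these data known. Named genes are the 9, the largest called rise and fall of each list by log2(FPKM + 1), and the 3 nearest in pattern to Srebf2, Insig1, Stard4 and Abca1; other list genes were named after their values were seen, for their role or because they were (or were not) called. Copies were sought with BLAST+ 2.17.0 (95% identity, 200 bases). Alternatives were voom on recovered reads, a GC correction (spline, 5 degrees of freedom), a block for replicate number, both together, a minimum of 10 reads per sample, no filter, total-read scaling, a pseudocount of 0.1 and the omission of each replicate.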

Additional observations from a re-analysis of the deposited data

How the results depend on the processing

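The calls of Srebf2, Insig1, Stard4, Mylip and Abca1 held in all 14 alternatives. Genes called lower over the whole table were 698 with the replicate block, 2433 with the GC correction and 1888 with both, against 1177. Of all calls, 45.9% were higher with the GC correction and 47.4% with both, in place of 58.7%, and the correction moved the median log2 fold change of all tested genes by -0.0542. Deviations from group means correlated at -0.053, 0.00027 and -0.055 between samples of the same number, which gave no sign that the numbers pair the samples. Pairing is not excluded by this, since the departure of control replicate 1 enters the deviations of all controls. With the replicate block Insig2 kept its log2 fold change of -0.62 and lost its call (adjusted p = 0.0787), as it did at -0.62 with no filter on low values, and no other of the 9 genes changed its call under the block. Srebf1 was -0.015 with the GC correction, with or without the block. In the list of SREBP cleavage and turnover, genes called higher were 0 with the block, 2 with the GC correction and 0 with both, and genes called lower were 3 with the GC correction and 2 with both. Genes of uptake and traffic called lower were 7 with the GC correction. In the LXR list, genes called higher were 0 with scaling by total reads, with no filter and with the block, and 2 with voom and with a minimum of 10 reads per sample, and 1 was lower with the GC correction.

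When each of the 6 replicates was omitted in turn, genes called higher ranged from 938 to 2969 and lower from 495 to 2590. Srebf1 ranged from -0.074 to 0.14, Scap from -0.25 to 0.048 and Insig2 from -0.79 to -0.45 on the log2 scale. Called genes ranged from 0 to 7 higher and 0 to 4 lower for SREBP cleavage and turnover, from 2 to 10 and 1 to 7 for uptake and traffic, and from 0 to 2 and 0 to 2 for LXR genes. The cause was not tested. With 3 samples per group the exact permutation tests could not go below 0.1.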
